A study of Homo sapiens with 6 samples.

Results

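The S100 calcium-binding protein genes described here are S100A4, S100A6, S100A8, S100A9, S100A10, S100A11, S100A12, S100A13 and S100P, 9 of the 23698 gene rows, chosen by symbol. Of the 9, 8 passed the filter on low counts and were among the 13668 genes tested, and S100A12 did not. The members were picked with earlier results of these libraries known, so their values are given as a description. The RNA came from MV4-11, an established human acute myeloid leukaemia line with an internal tandem duplication in FLT3 and a rearranged MLL gene. In 3 libraries the cells carried a lentiviral short hairpin RNA against PRMT5, an arginine methyltransferase, and in 3 they carried a scrambled hairpin (control). Both groups were stably transduced, and the sources used here name no hairpin clone, time after transduction or separate culture for any library. What the p-values measure is thus the spread between these libraries, possibly a technical one.

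S100 proteins are small EF-hand proteins, found in vertebrates, that mostly work as dimers and change shape when calcium binds, exposing a surface for partner proteins. S100A8 and S100A9 together form calprotectin, a metal-binding complex that fills the cytosol of neutrophils and monocytes and, once released, acts on TLR4 and on RAGE, the receptor encoded by AGER. S100A12, another calgranulin, is also made by these cells. In the myeloid lineage the calgranulins come on late, with maturation, whereas S100A4, S100A6, S100A10 and S100A11 are expressed across many cell types.

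S100A9, S100A12 and S100A8 lie next to one another on chromosome 1, in that order of protein-coding genes in RefSeq (GRCh38.p14), between PGLYRP4 and S100A7A. S100A6, S100A4 and S100A13 lie in the same run of S100 genes, S100A10 and S100A11 are neighbours elsewhere on chromosome 1, and S100P is on chromosome 4. The promoters of the calgranulin trio, which shared a pattern across libraries, are shown with that of S100A10, which did not share it. Each runs 5′ to 3′ on the strand of its gene, from 250 bases before to 50 after a start site listed by RefSeq (GRCh38.p14). Capitals mark TATAAA and the C/EBP-type letters TTGCNNAA on either strand. The table lists 3 starts for S100A8, and the one with TATAAA nearest before it is shown.
S100A9 (chr1:153357604-153357903, plus strand): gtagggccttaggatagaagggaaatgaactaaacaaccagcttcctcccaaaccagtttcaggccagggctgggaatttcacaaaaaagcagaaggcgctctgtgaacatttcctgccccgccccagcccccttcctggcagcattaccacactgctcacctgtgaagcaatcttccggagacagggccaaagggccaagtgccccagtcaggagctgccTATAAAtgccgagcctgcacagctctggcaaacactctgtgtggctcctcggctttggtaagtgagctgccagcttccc
S100A12 (chr1:153375572-153375871, minus strand): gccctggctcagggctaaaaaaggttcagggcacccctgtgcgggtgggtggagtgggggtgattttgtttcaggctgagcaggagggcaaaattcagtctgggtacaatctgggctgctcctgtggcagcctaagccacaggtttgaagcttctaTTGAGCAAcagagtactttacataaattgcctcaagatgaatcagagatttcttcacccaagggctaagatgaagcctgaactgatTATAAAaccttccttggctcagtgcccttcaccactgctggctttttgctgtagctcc
S100A8 (chr1:153391024-153391323, minus strand): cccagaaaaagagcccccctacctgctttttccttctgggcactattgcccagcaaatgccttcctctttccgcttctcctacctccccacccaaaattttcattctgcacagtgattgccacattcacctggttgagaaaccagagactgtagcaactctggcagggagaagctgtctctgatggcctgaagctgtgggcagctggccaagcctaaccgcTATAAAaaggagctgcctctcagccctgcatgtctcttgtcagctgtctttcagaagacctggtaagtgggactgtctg
S100A10 (chr1:151993810-151994109, minus strand): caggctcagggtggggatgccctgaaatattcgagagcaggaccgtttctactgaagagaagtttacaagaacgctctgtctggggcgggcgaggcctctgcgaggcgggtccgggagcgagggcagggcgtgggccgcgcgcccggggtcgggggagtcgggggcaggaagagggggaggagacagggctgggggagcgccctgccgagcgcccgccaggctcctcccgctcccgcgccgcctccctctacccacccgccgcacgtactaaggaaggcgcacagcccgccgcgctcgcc

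In S100A9 and in this S100A8 window TATAAA began 29 bases before the start, and in S100A12 it began 8 bases before it. Of the other S100A8 starts, one had TATAAA 126 bases before it and one had none. Members outside the trio held these letters too, 28 bases before the start in S100P, 31 in S100A4 and 29 at 1 of the 3 starts listed for S100A13. TATAAA on either strand was found in 11.5% of the 35116 promoters of 300 bases in the table. S100A12 also held a TTGCNNAA match, TTGAGCAA as read on the strand shown, 94 bases before the start. S100A11 held one as well, TTGGGCAA, 33 bases before its start. The motif occurred in 10.5% of all promoters. The printed S100A10 promoter held neither. CG dinucleotides varied widely between the promoters. S100A12 had 1, S100A8 had 2 and both S100A9 and S100P had 5. S100A4 had 8, S100A13 had 11 to 19 by start, S100A11 22, S100A6 31 and S100A10 32, with a median of 14 over all promoters. GAGGAAGT (PU.1, 2.59% of promoters), TGANTCA (AP-1, 7.71%) and TTCNNNGAA (STAT, 7.66%) were searched on both strands as well. The AP-1 letters occurred once among the members, as TGAATCA in S100A12, and the other pair in none. These matches describe letters in the windows and do not show binding.

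Libraries held 16408484 to 19077106 estimated counts. Levels are given as CPM, counts scaled to the depth of each library with TMM factors. PRMT5, the target of the hairpin, was at 103, 71.6 and 53.0 CPM (knockdown 1 to 3) and 133, 53.2 and 158 CPM (labelled control 1 to 3). The library labelled scrambled control 2 was within the knockdown range of PRMT5, which goes against its label. Over the tested genes its log2 CPM correlated with the other 5 libraries at 0.8765 to 0.923, and those 5 correlated with one another at 0.952 to 0.995. Since genes are no independent replicates, that is a description of the libraries. Markers of the line (FLT3, CD33, HOXA9, MEIS1, PTPRC) were present throughout, with a summed level of 630 to 907 CPM in the knockdown and 885 to 1267 CPM in the control libraries. HOXA9, MEIS1 and PTPRC were highest in the library labelled scrambled control 2, and FLT3 and CD33 were not. HOXA9 was at 296 CPM there (78.5 to 96.2 elsewhere) and MEIS1 at 102 CPM (18.3 to 32.9 elsewhere). The erythroid genes HBB, HBA1 and HBA2, the T cell gene CD3E and the epithelial gene EPCAM were at 0 in every library. Other genes listed with EPCAM were present and highest in the library labelled scrambled control 2, where KRT8 was at 27.6 CPM (3.88 to 10.8 elsewhere) and COL1A1 had 77 counts (at most 6 elsewhere). That list summed to 57.1 CPM there and to 15.1 to 27.9 CPM in the other 5 libraries. Monocyte and granule markers appear beside the calgranulins, whose values they accompany.

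None of the 9 members was set apart between knockdown and control libraries. With edgeR's quasi-likelihood test 0 of the 8 tested members had an adjusted p under 0.05, where 0.0% of all tested genes had one. None had an unadjusted p under 0.05 in edgeR either, against 1.77% of tested genes. DESeq2 and limma-voom also called 0 genes (0.0%), and at an unadjusted p under 0.05 they had 461 (3.37%) and 117 (0.856%) of the 13668. For none of the 9 members did the knockdown and control libraries fall into ranges that do not overlap, which 6.24% of tested genes did. Of the 8 members, 4 had a higher and 4 a lower fitted level in the knockdown, with a median log2 difference of 0.13. Over all tested genes 49.9% were higher, with a median of −0.00069.

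**Figure D1:**
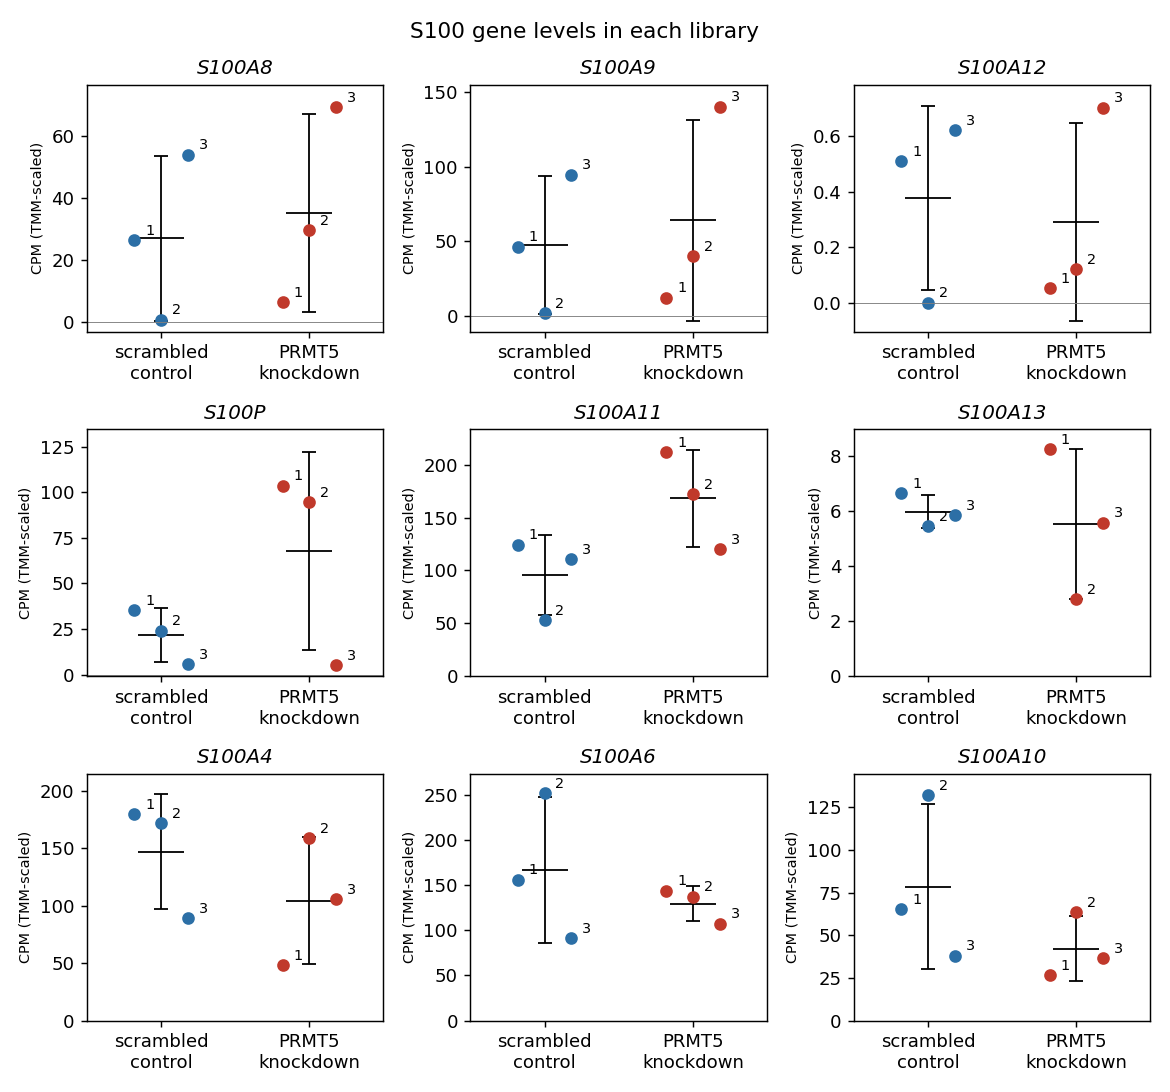
TMM-scaled CPM (vertical axes, linear, each with its own range) of the 9 S100 genes in the 3 scrambled control (blue) and 3 PRMT5 knockdown (red) libraries. Digits are replicate numbers, and black lines give the mean and SD of 3 libraries. The groups overlap in every panel, and S100A8 and S100A9 run from near 0 in control 2 to their highest level in knockdown 3.

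The calgranulin pair varied more between libraries of one group than nearly all other genes. S100A8 was at 6.47, 29.7 and 69.3 CPM (knockdown 1 to 3) and 26.4, 0.843 and 53.9 CPM (labelled control 1 to 3). S100A9 was at 12.2, 39.9 and 140.1 CPM (knockdown 1 to 3) and 46.4, 2.01 and 94.5 CPM (labelled control 1 to 3). Both were lowest in the library labelled scrambled control 2 and highest in knockdown 3, and each group held a low, a middle and a high library. The highest S100A8 level was 82.2 times the lowest, and for S100A9 the ratio was 69.7. The low end rested on 13 counts of S100A8 (exact Poisson 95% interval 6.92 to 22.2 counts) and 31 of S100A9 (21.1 to 44.0), intervals that cover counting error only. The within-group SD of log2 CPM was 2.51 for S100A8 and 2.40 for S100A9, against a median of 0.40 over all tested genes. For each of the pair, 99.9% of tested genes had a smaller SD.

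Against that spread the difference between groups was small. S100A8 averaged 35.1 ± 31.7 CPM over the knockdown and 27.0 ± 26.5 CPM over the control libraries (SD, n = 3 each). Knockdown minus control, its log2 difference came to 0.38 (SE 1.20, 95% confidence interval −2.42 to 3.17; edgeR adjusted p = 0.958). S100A9 averaged 64.1 ± 67.3 CPM and 47.6 ± 46.3 CPM (SD, n = 3 each), with a log2 difference of 0.43 (SE 1.20, interval −2.36 to 3.22; edgeR adjusted p = 0.954). Leaving out the library labelled scrambled control 2 turned the sign, to −0.19 for S100A8 and −0.14 for S100A9, as did leaving out knockdown 3, to −0.59 and −0.88. Under the replicate block the differences were 0.70 and 0.76 (edgeR adjusted p = 0.852 and 0.825).

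Taken by replicate number, the 3 differences of the calgranulin pair had no common size or sign. In number 1 both genes were lower in the knockdown library, 4.07-fold for S100A8 and 3.81-fold for S100A9. In number 2 both were higher there, 35.2-fold and 19.9-fold, over the library labelled scrambled control 2. Number 3 gave ratios of 1.28 and 1.48, knockdown over control. In each number S100A8 and S100A9 went the same way, since the ratio of S100A8 to S100A9 stayed between 0.419 and 0.744 in all 6 libraries while the levels moved far more. With 1 library a group in each number, these differences have no replicate check.

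S100A12 was near the floor. It had 1, 2 and 13 counts in knockdown 1 to 3 and 9, 0 and 12 counts in the libraries labelled control 1 to 3, or at most 0.703 CPM. The count of 0 in the library labelled scrambled control 2 allows up to 3 counts, or 0.195 CPM, by the limit set here for a count of 0. Its exact two-sided Poisson 95% limit was 3.69 counts, or 0.239 CPM. Low as they were, its counts ranked the 6 libraries exactly as S100A9 did, with knockdown 3, control 3 and control 1 above knockdown 2, knockdown 1 and control 2. Neighbours in that order had exact Poisson 95% intervals that overlapped. The filter removed S100A12 from the test.

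Which S100 genes moved with S100A8 and S100A9 was read from the order of the libraries. There are 15 pairs of libraries, and for each pair of genes the number of library pairs ranked the same way by CPM was counted. S100A8 and S100A9 ranked 14 of 15 alike, S100A12 and S100A9 15, and S100A12 and S100A8 14. Over all other tested genes the median was 8 for S100A8 and 7 for S100A9, and 2.72% of them reached 14 or more with S100A8 and 3.38% with S100A9. Each library enters several of the 15 pairs, and knockdown 3 and control 3 correlated at 0.995. The 15 pairs are thus not independent, and these counts carry no test. No other member came near. S100A11 matched S100A8 in 7 of 15, S100A4 and S100A13 in 6, S100A10 and S100P in 4, and S100A6 in 2.

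**Figure D2:**
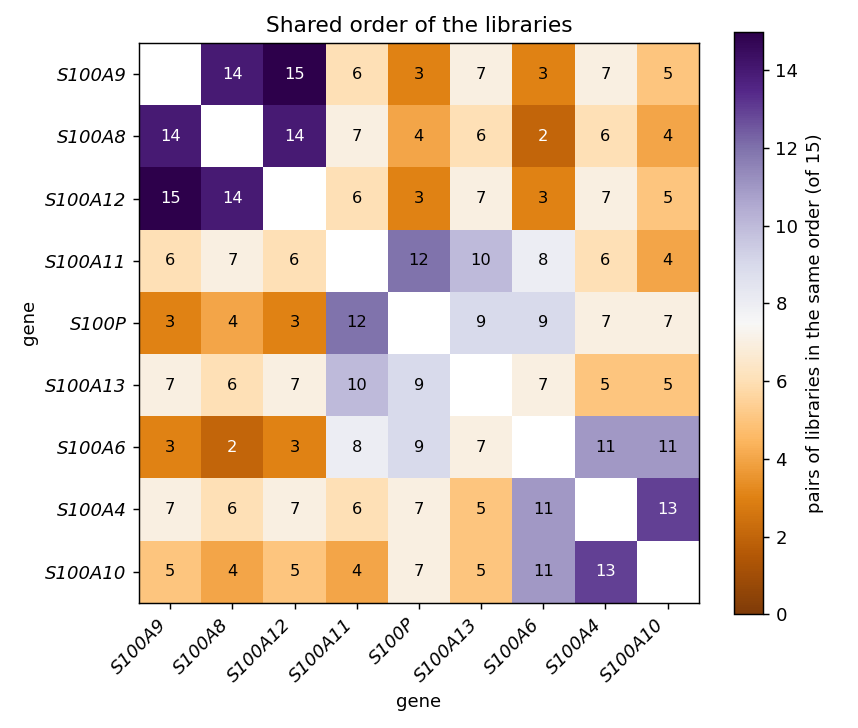
Number of the 15 pairs of libraries that 2 S100 genes (rows and columns) rank in the same order by CPM, as colour and digit. S100A9, S100A8 and S100A12 share 14 or 15 pairs, S100A4 and S100A10 share 13, and S100P shares 3 or 4 with the calgranulins.

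The size of the swings paired S100A8 with S100A9 and left S100A12 less close. After centring each gene's log2 CPM on its mean over the 6 libraries, the root mean square difference of S100A9 from S100A8 was 0.23 log2 units, where the median over tested genes was 2.14. Among 11065 other genes averaging 5 CPM or more, S100A9 was the closest to S100A8, and S100A8 the closest to S100A9. S100A11 followed at rank 2340 from S100A8, S100A13 at 7464, S100A4 at 7696, S100A6 at 9918, S100A10 at 10281 and S100P at 10968. S100A12, compared in the same way although it was not ranked, was 1.10 from S100A9, 1.17 from S100A13, 1.19 from S100A11 and 1.25 from S100A8. At its low counts these distances depend on the prior count of 2. With a prior count of 0.5, S100A12 was 0.83 from S100A8 and 0.64 from S100A9. Without the library labelled scrambled control 2 it was 0.63 and 0.54 from them. Whether S100A12 is closer to S100A8 than to S100A11 or S100A13 is thus not settled. Leaving out each library in turn kept S100A9 within 0.13 to 0.25 of S100A8.

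**Figure D3:**
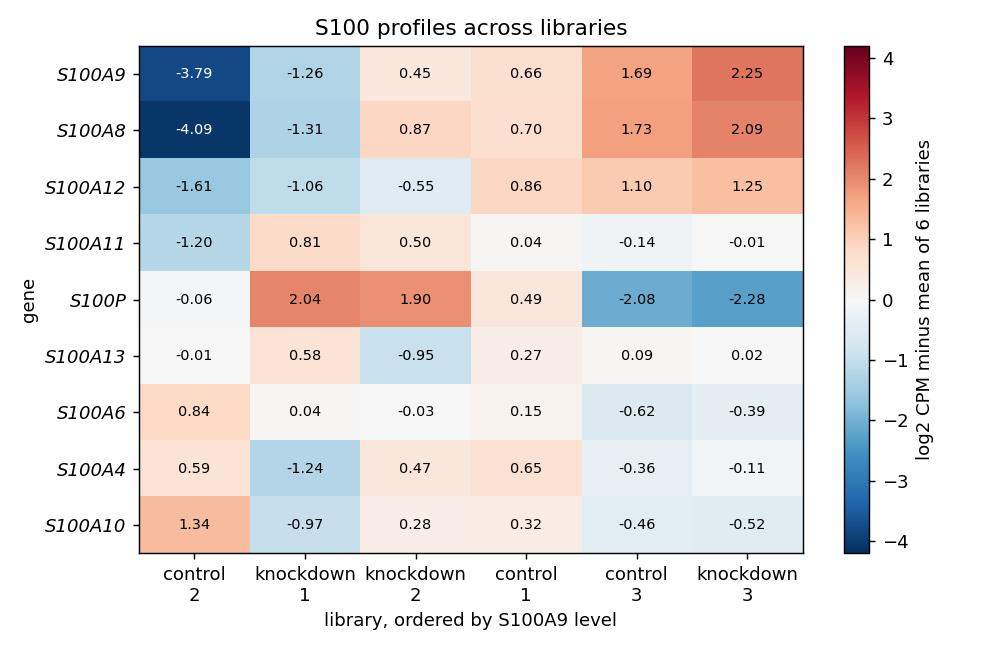
Log2 CPM of each S100 gene (rows) minus its mean over 6 libraries, by library (columns, ordered by the S100A9 level), as colour and value. S100A9, S100A8 and S100A12 are lowest in control 2 and highest in knockdown 3, while S100P is at 2.04 in knockdown 1 and at −2.28 in knockdown 3.

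Outside the S100 family, the genes with the profile closest to S100A9 were MS4A4A, MS4A6A, LOC100506585, MPEG1 and LYZ. MS4A4A and MS4A6A encode membrane proteins of monocytes and macrophages, MPEG1 a pore-forming protein of macrophages, and LYZ is the lysozyme gene. MS4A6A was at 18.1, 14.1 and 119.6 CPM (knockdown 1 to 3) and 36.0, 2.59 and 97.3 CPM (labelled control 1 to 3). It ranked 14 of 15 library pairs as S100A9 did, at a root mean square difference of 0.66. LYZ was at 544, 482 and 1268 CPM (knockdown 1 to 3) and 429.7, 35.3 and 980.05 CPM (labelled control 1 to 3), ranking 12 of 15 alike. As for S100A9, both numbered 3 were high and the library labelled scrambled control 2 was lowest. MS4A6A and LYZ were picked for their likeness to S100A9, so that shared pattern follows from the choice. For S100A8 the closest 5 were LOC100506585, MPEG1, MS4A4A, KCNS1, a potassium channel subunit gene, and MS4A6A.

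Monocyte markers fixed as a list (CD14, LYZ, VCAN, FCN1, CSF1R, ITGAM, MNDA) accompanied the calgranulins only in part. Their summed level was 580 to 1353 CPM in the knockdown and 162 to 1044 CPM in the control libraries. LYZ made up most of it in 5 libraries, and in the library labelled scrambled control 2 ITGAM did. FCN1, ficolin-1, was at 2.22 CPM in knockdown 3 and 1.61 CPM in control 3 and at most 0.12 CPM elsewhere. ITGAM, an integrin subunit, was instead highest in the library labelled scrambled control 2, at 115 CPM. It was at 44.7 and 28.0 CPM in knockdown 3 and control 3, and lowest in knockdown 1, at 16.4 CPM. S100A8 and S100A9 were low in knockdown 1 too. CD14 stayed at 0.39 to 1.09 CPM and VCAN at 0.71 to 1.46 CPM. CSF1R was highest in control 1, at 18.3 CPM, and lowest in knockdown 1, at 2.40 CPM. MNDA was highest in knockdown 2, at 31.5 CPM, with 22.4 and 20.2 CPM in knockdown 3 and control 3. Its lowest level, 5.38 CPM, was in the library labelled scrambled control 2. None of the 6 tested members of the list passed in edgeR, with 4 higher and 2 lower. In bulk RNA, fewer cells of a type and less RNA per cell cannot be told apart. Neutrophil granule genes were also low in the library labelled scrambled control 2. Their list summed to 1339.5 CPM there and to 2328 to 2703 CPM in the other 5, and its 5 tested genes (AZU1, CTSG, PRTN3, ELANE and MPO) were all lowest there, MPO at 13.8 CPM. None of the 5 passed in edgeR, with 4 higher and 1 lower. The part of the monocyte and granule markers in the calgranulin values was not tested.

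S100P, first described in placenta and bound by the product of S100PBP, had another profile than the calgranulins. S100P was at 104, 94.6 and 5.08 CPM (knockdown 1 to 3) and 35.5, 24.1 and 5.85 CPM (labelled control 1 to 3). Knockdown 1 and 2 were above every control, and both libraries numbered 3, the highest for S100A9, were low. In the library labelled scrambled control 2, where S100A8 and S100A9 lay at −4.09 and −3.79 log2 units from their means, S100P was at −0.06 from its own. The log2 difference was 1.64 (SE 1.01, 95% confidence interval −0.73 to 3.996; edgeR adjusted p = 0.926), and between 1.18 and 2.18 with each library left out in turn. By number the ratio of knockdown to control was 2.92, 3.92 and 0.868. Only 3 of 15 library pairs were ranked as in S100A9, a count that 15.1% of tested genes did not exceed. The within-group SD of 1.98 log2 units was larger than that of 99.5% of tested genes. S100PBP itself held 52.0 to 67.0 CPM in all 6 libraries, with a log2 difference of 0.02 (SE 0.20).

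**Figure D4:**
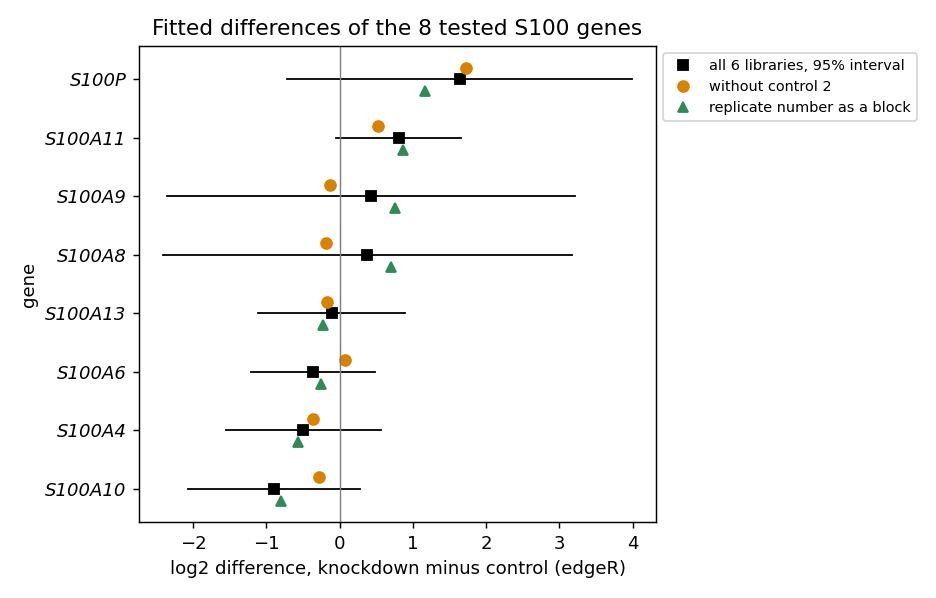
Fitted log2 difference, knockdown minus control (horizontal axis), of the 8 tested S100 genes. Black squares and lines are edgeR estimates over all 6 libraries with 95% intervals, orange circles leave out control 2, and green triangles use the replicate number as a block. Every interval includes 0, and S100A8, S100A9 and S100A6 change sign without control 2.

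S100A11, a partner of annexin A1, was the member with the smallest p. It was at 212, 172 and 120.1 CPM (knockdown 1 to 3) and 124, 52.9 and 110.4 CPM (labelled control 1 to 3). Knockdown 1 and 2 were above all controls, and knockdown 3 was below control 1. The log2 difference was 0.81 (SE 0.37, 95% confidence interval −0.04 to 1.66; unadjusted p = 0.0599, edgeR adjusted p = 0.926), and it was 0.52 without the library labelled scrambled control 2. The knockdown library was the higher one in 3 of 3 numbers, by 1.70-fold, 3.25-fold and 1.09-fold. RefSeq lists 10 entries named as copies of S100A11 (S100A11P1 to S100A11P10), and how reads shared with them were counted is not given in the sources used here. ANXA1, picked for its role and outside the rule for named genes, lay the other way, with a log2 difference of −0.63 (SE 0.36; edgeR adjusted p = 0.926).

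S100A10 had the largest fitted decrease among the members, which did not pass the test. It encodes p11, the partner of annexin A2, which has lost the ability to bind calcium. S100A10 was at 26.7, 63.5 and 36.6 CPM (knockdown 1 to 3) and 65.4, 132 and 38.1 CPM (labelled control 1 to 3). The library labelled scrambled control 2 had the highest value, and knockdown 2 was above control 3. The log2 difference was −0.89 (SE 0.50, 95% confidence interval −2.07 to 0.28; edgeR adjusted p = 0.926), or −0.29 without the library labelled scrambled control 2. The knockdown library was the lower one in 3 of 3 numbers, by 2.44-fold, 2.08-fold and 1.04-fold. ANXA2, also picked for its role, was at 46.7, 36.1 and 108 CPM (knockdown 1 to 3) and 59.1, 48.6 and 113 CPM (labelled control 1 to 3). It was high in both libraries numbered 3, where S100A10 was not.

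The ranking of the libraries by S100A10 was nearest, among the members, to those by S100A4 and S100A6. S100A4, which binds non-muscle myosin, matched S100A10 in 13 of 15 library pairs at a root mean square difference of 0.40, and S100A6, calcyclin, matched it in 11 at 0.49. With S100A10, 8.59% of tested genes reached 13 or more and 24.2% reached 11 or more, so the count for S100A6 was a common one. S100A11 and S100P ranked 12 of 15 pairs alike, which 11.4% of genes reached with S100A11. S100A4 was at 48.4, 159 and 106 CPM (knockdown 1 to 3) and 179.6, 172 and 89.3 CPM (labelled control 1 to 3). Its low library was knockdown 1, 3.71-fold under control 1, and in the other numbers the 2 libraries were within 1.18-fold. S100A6 was at 144, 137 and 107 CPM (knockdown 1 to 3) and 156, 252 and 91.2 CPM (labelled control 1 to 3), highest in the library labelled scrambled control 2. The log2 differences were −0.49 (SE 0.46) and −0.36 (SE 0.36), with an edgeR adjusted p of 0.926 each. For S100A6 the sign turned to 0.07 without the library labelled scrambled control 2. S100A4 and S100A5 overlap in RefSeq, but S100A5 held at most 5 counts in a library.

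S100A13, which takes part in the release of proteins without a signal peptide such as FGF1, was low and showed the smallest fitted difference of the 8. It was at 8.25, 2.79 and 5.57 CPM (knockdown 1 to 3) and 6.64, 5.45 and 5.85 CPM (labelled control 1 to 3). Knockdown 1 was highest and knockdown 2 lowest, with the controls between them. The log2 difference was −0.11 (SE 0.43; edgeR adjusted p = 0.967), −0.22 with the replicate block and 0.21 without knockdown 2. S100A13 overlaps S100A1 and CHTOP, and use of strand in the counting is not given in the sources used here. Reads of these genes may therefore be shared. S100A1 was at 1.29 to 8.88 CPM, highest in the library labelled scrambled control 2.

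Levels were compared between genes per kilobase of the longest protein-coding transcript (GENCODE v29, matched by symbol for all 9). On that scale S100A11 averaged 222 ± 92.0 CPM per kilobase (SD over 6 libraries), S100A6 219.7 ± 83.6 and S100A4 209 ± 87.6, levels that do not differ beyond their spread. S100A9 followed at 96.8 ± 90.9, S100A8 at 59.5 ± 50.8, S100A10 at 50.3 ± 32.0 and S100P at 35.0 ± 34.2, again with overlapping spreads. S100A13, at 8.39 ± 2.60, and S100A12, at 0.646 ± 0.602, were lower. With the median transcript length S100A10 was at 66.5, above S100A8 at 61.1. The leading member changed between libraries. S100A9 led in knockdown 3, where S100A8 and S100A9 made up 39.2% of the summed per-kilobase level of the 9 genes, S100A6 in the library labelled scrambled control 2, where they made up 0.572%, S100A4 in control 1, and S100A11 in the other three.

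The remaining S100 genes were scarce. Of 12 other S100 genes in the tables, S100A7A, S100A7L2, S100G and S100Z had no count in any library, and S100A1 alone averaged at least 1 CPM. S100A5, untested for its low counts and named after its values were seen, had 0, 0 and 1 counts in knockdown 1 to 3 and 4, 4 and 5 in the libraries labelled control 1 to 3, ranges that do not overlap, which was so for 6.24% of tested genes. S100A3, at 0.104 to 1.70 CPM, was the other one tested besides S100A1, and S100B reached 1.58 CPM in knockdown 2 and at most 0.397 CPM elsewhere. Log2 differences were −1.17 (SE 0.70) for S100A1 and −1.11 (SE 0.81) for S100A3, neither past the test (edgeR adjusted p = 0.926), and S100A1 had −0.19 without the library labelled scrambled control 2.

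Genes linked to the S100 proteins by function or position were read from the same fit, and none passed edgeR's test. Of 11 genes of calgranulin reception and its inflammatory output 8 were higher and 3 lower in the knockdown (median log2 difference 0.08). BSG, basigin, a receptor for S100A9, was the most abundant at 496 to 746 CPM, whereas TLR4 stayed at 0.26 to 3.77 CPM. TNF was at 34.8, 139 and 81.2 CPM (knockdown 1 to 3) and 52.4, 9.40 and 67.1 CPM (labelled control 1 to 3), lowest where S100A8 was lowest. Of 9 myeloid transcription factors 8 were higher and 1 lower (median 0.11), with IRF8, CEBPA and GFI1 at log2 differences of 0.29, 0.07 and 0.24. CEBPB, a C/EBP factor active in monocytes and singled out by role, was at 15.7 and 14.04 CPM in knockdown 3 and control 3 and at 36.8 to 58.3 CPM elsewhere, so it was lowest in the libraries where S100A8 and S100A9 were highest. Of 7 tested annexins 4 were higher and 3 lower (median 0.01). ANXA4, the most abundant, had 204 CPM for the library labelled scrambled control 2 and 702 to 1140 CPM elsewhere. Of 7 tested neighbours of the chromosome 1 S100 genes 3 were higher and 4 lower (median −0.13). ILF2, CHTOP and INTS3, the most abundant of them, had log2 differences of 0.17, 0.53 and −0.46. ILF2, at 204 to 377 CPM, and INTS3, at 92.0 to 155 CPM, spanned a far narrower range than S100A8 and S100A9.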

How the data were processed

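Poly(A) RNA-seq libraries of total RNA from MV4-11 cells, 3 with a PRMT5 hairpin and 3 scrambled controls, were analysed. The values the authors deposited are estimated counts per gene, unscaled, in 1 table per library. Tools named, with no role, by the submitters' processing notes are CASAVA 1.9, TopHat2 (version 2) and edgeR, and the build is hg19. For the counter and strandedness, no statement is given in the sources used here. Values were rounded to whole numbers, filtered with filterByExpr (minimum count 10) and tested over all genes with edgeR 4.0.16 (R 4.3.3; TMM, glmQLFit, glmQLFTest, group only, two-sided, Benjamini-Hochberg, threshold 0.05). SEs and 95% intervals come from that fit. Log2 CPM used a prior count of 2. Intervals on counts without molecular identifiers cover counting error only. With 3 libraries a group, the smallest p of an exact permutation test is 0.1.

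The members and lists were chosen with earlier results of these data known. Named genes were the members, PRMT5, other S100 genes averaging at least 1 CPM, the 3 most abundant of each list, and the 5 genes with the profile closest to S100A8 and to S100A9 (mean of at least 5 CPM). Genes named outside that rule were chosen after their values were seen.

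Deviations from group means correlated at 0.127, 0.394 and 0.566 between libraries with the same number, each above 0.1, while knockdown 2 with control 1, of different numbers, reached 0.164. The labels state no pairing. Differences by number set libraries of the same number side by side, a pairing taken from the values. The main edgeR fit used the group only, without pairing, and the replicate block was an alternative. Other alternatives were other scalings and filters, unrounded values, DESeq2 1.42.0, limma-voom (limma 3.58.1), and libraries left out. In counts simulated for this comparison (13668 genes), seeded changes were recovered by edgeR at rates of 6% (2-fold), 82% (4-fold) and 100% (8-fold), beside 6 false calls. Changes were seeded only in genes averaging 5 CPM or more. The simulation gave every gene the same spread, a biological coefficient of variation of 0.373. Its rates therefore do not hold for S100A8, S100A9 and S100P, with within-group SDs of 2.51, 2.40 and 1.98 log2 units.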

Additional observations from a re-analysis of the deposited data

How the results depend on the processing

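In edgeR, DESeq2 and limma-voom, under each scaling, filter and left-out library and with the replicate block, 0 genes had an adjusted p under 0.05. Fitted differences of the 8 tested members kept their sign in 118 of 127 alternative values. With one library left out at a time, the log2 difference ran from −0.59 to 1.36 for S100A8, from −0.88 to 1.40 for S100A9, from −0.65 to 0.070 for S100A6 and from −0.52 to 0.21 for S100A13. Without both libraries numbered 2 the sign turned for S100A8 (−0.087), S100A6 (0.021) and S100A13 (0.15), and the cause was not tested. The replicate block gave 0.70 for S100A8 and 0.76 for S100A9, and it changed no call. With total counts only, the S100A4 difference within number 2 turned to 0.074. Of the values by replicate number, the other 80 kept their sign. S100A9 stayed close to S100A8 with each library left out, but the order of the other members by distance from S100A8 changed without the library labelled scrambled control 2. S100A8 could not be compared with at least 1 CPM required in all libraries. S100A12 is limited by depth, at 0 to 13 counts a library. Of 2-fold changes simulated in genes averaging 5 CPM or more, 6% were recovered, a rate that does not cover S100A12. The within-group SD of the tested members, 0.54 to 2.51 log2 units, was above the median of 0.40.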

Other observations

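S100P had a set of close companions of its own, looked for after its values were seen. The genes outside the S100 family with the smallest root mean square difference from S100P were RPS6KA2 (0.36 log2 units), INHBE (0.49), GDF15 (0.54), NUPR1 (0.56) and FYN (0.58). INHBE, GDF15 and NUPR1 are known as genes of the cellular stress response, RPS6KA2 encodes a ribosomal S6 kinase and FYN a SRC-family kinase. GDF15 was at 165 and 69.2 CPM in knockdown 1 and 2, at 24.3 and 27.3 CPM in the libraries labelled control 1 and 2, and at 3.35 and 3.00 CPM in knockdown 3 and control 3. RPS6KA2 was at 25.1 and 22.0 CPM in knockdown 1 and 2, at 9.08 and 10.1 CPM in the libraries labelled control 1 and 2, and at 0.919 and 1.14 CPM in knockdown 3 and control 3. As with S100P, both libraries numbered 3 were lowest for GDF15 and RPS6KA2, and the overlap between groups came from knockdown 3. None of the 5 passed edgeR's test, where the adjusted p was 0.926 for GDF15.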
